A study of Homo sapiens with 36 samples.

Results

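The genes described here are the histone genes with symbols that start with HIST1H, HIST2H, HIST3H or HIST4H. They were chosen by symbol alone, together with a summed count of at least 100 over all libraries. Of the 37549 genes listed, 89 had such a symbol and 78 reached the count. HIST3H3, with a summed count of 103, and HIST1H1T, with 140, lay just inside that limit, while HIST1H2BPS2, with 68, and HIST1H2BPS1, with 23, lay just outside it. The rule itself uses no treatment effect.

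The counts came from 36 libraries of ribosomal RNA-depleted total RNA, with 3 libraries in each of 12 groups. MEC1, JVM2 and EHEB are B lymphoblastoid leukaemic cell lines. Cells of each line received the vehicle DMSO, 50 µM fludarabine, 5 µM ibrutinib or 10 µM idelalisib. MEC1 cells were exposed for 48 h. The exposure of JVM2 was 72 h and that of EHEB 96 h, which means that line and time of exposure cannot be told apart. Fludarabine is a purine analogue that blocks DNA synthesis. Ibrutinib inhibits Bruton tyrosine kinase, and idelalisib inhibits the delta isoform of phosphoinositide 3-kinase, both downstream of the B-cell receptor. Each line is a single cultured line. The study's general statement on statistics gives at least 3 independent experiments for results other than glucuronidation assays, which were also repeated. It does not name the sequencing libraries, and the labels do not tie libraries to separate cultures. If the 3 libraries of a group shared a culture, the p-values measure only technical spread. In each line the DMSO and fludarabine libraries carry numbers of one series, whereas the ibrutinib and idelalisib libraries carry numbers of a later series with no DMSO library among them. Within a group, libraries are called the first, the second and the third in order of these numbers. A difference between a kinase inhibitor and DMSO and a difference between these number series cannot be told apart.

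Histones package DNA into nucleosomes, each built from the core histones H2A, H2B, H3 and H4, while linker histone H1 binds between nucleosomes. Most genes of the HIST clusters are replication dependent: their RNA accumulates in S phase, when new DNA must be wrapped, and is degraded when DNA synthesis stops. These RNAs end in a conserved stem-loop that is bound by SLBP in place of a poly(A) tail, which is why total RNA without poly(A) selection captures them. A few members can also be read through the stem-loop to a downstream poly(A) site, a form that is found in non-dividing cells.

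Of the 78 members, 77 were matched to a current gene and 67 were protein coding. The coding members comprised 6 H1, 15 H2A, 17 H2B, 15 H3 and 14 H4 genes. On GRCh38, 51 of them lay in the HIST1 cluster on chromosome 6, 15 on chromosome 1 and 1 on chromosome 12. All 67 had a single exon. The 14 H4 genes encode 1 identical protein of 103 residues, and the 10 HIST1H3 genes encode 1 protein of 136 residues. In all, 34 distinct proteins were encoded. The other 11 members were pseudogenes, apart from HIST2H2BD, a symbol without a match. For 11 members, at least 50% of their 75-base stretches were shared with another member, and for 49 members none was shared, so that reads of the first kind could be divided between copies by the authors' counting.

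A stem-loop was found in the reference sequence of all 67 coding members, with a stem of 6 bases and a loop of 4. The search first required the loop to begin with TT. It was widened to TC after HIST1H2BI, HIST1H3E and HIST1H4L had shown no match. In total, 9 forms were found. The commonest form was carried by 39 members, the second by 10, the third by 9 and the fourth by 4, and each of the other 5 forms by 1 member. They are shown because this element is what makes a transcript a replication-dependent histone RNA. The sequences were read from GRCh38 on the strand of the gene, 5′ to 3′, with the stem and loop in capitals and 5 bases on either side. Forms 1 and 2 were found in H1, H2A, H2B and H3 genes. The H4 genes carried the stem beginning with GGCCC. HIST1H2AG combined an H2A-like first arm with an H4-like second arm.
HIST1H1B, chr6:27866792-27866817, minus strand: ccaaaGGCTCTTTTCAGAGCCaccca
HIST1H2BK, chr6:27146361-27146386, minus strand: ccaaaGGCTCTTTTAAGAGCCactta
HIST1H4E, chr6:26204996-26205021, plus strand: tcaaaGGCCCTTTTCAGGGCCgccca
HIST1H4I, chr6:27139649-27139674, plus strand: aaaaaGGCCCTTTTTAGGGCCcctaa
HIST1H2AG, chr6:27133510-27133535, plus strand: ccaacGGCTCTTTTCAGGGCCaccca
HIST2H2AC, chr1:149887386-149887411, plus strand: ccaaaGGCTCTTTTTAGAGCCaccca
HIST1H3E, chr6:26225591-26225616, plus strand: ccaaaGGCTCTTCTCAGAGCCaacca
HIST1H2BI, chr6:26273387-26273412, plus strand: ccaaaGGCTCTTCTAAGAGCCaccca
HIST1H4L, chr6:27873148-27873173, minus strand: tcaaaGGCCCTTCTCAGGGCCaccca

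Promoters were compared because the members moved together in most of the comparisons that follow. Promoter sequences from RefSeq on GRCh38.p14, from 250 bases before to 50 bases after the start, were found for 62 members. The letters CCAAT on either strand were found in 85.5% of them, against 34.6% of all 35116 promoters. All H1, H2A, H2B and H3 promoters held them, but only 3 of 12 H4 promoters did. The octamer ATTTGCAT on either strand, the motif bound by the OCT1 protein encoded by POU2F1, occurred in 13 of 17 H2B and 10 of 14 H2A promoters and in none of the H1, H3 and H4 promoters. This came to 37.1% of the members and 1.77% of all promoters. TATAAA was found in 66.1% of the members and 11.53% of all. A match describes the letters in this window and is not a measured binding site. The 100 bases before the start are given for 4 members, with these motifs in capitals: HIST1H2BK, the most abundant member per length on average over all 36 libraries, with all motifs, HIST1H3B, an H3 gene with large falls, HIST1H3E, an H3 gene that never fell, and HIST1H4E, which held none of them in these bases.
HIST1H2BK, chr6:27146856-27146955, minus strand: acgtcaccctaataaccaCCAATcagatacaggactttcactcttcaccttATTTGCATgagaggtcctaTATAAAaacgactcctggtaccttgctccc
HIST1H3B, chr6:26032100-26032199, minus strand: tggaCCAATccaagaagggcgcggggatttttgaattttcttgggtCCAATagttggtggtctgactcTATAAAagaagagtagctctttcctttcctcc
HIST1H3E, chr6:26225035-26225134, plus strand: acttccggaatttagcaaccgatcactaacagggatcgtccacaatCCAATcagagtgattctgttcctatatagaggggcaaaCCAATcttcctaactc
HIST1H4E, chr6:26204510-26204609, plus strand: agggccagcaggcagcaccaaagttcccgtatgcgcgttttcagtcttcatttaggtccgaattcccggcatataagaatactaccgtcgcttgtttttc

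Total counts ranged from 26590705 to 53538925 per library, with a median of 42114145.5. Levels are given as CPM, the usual scaling of a count to a common library size, after TMM scaling within a line, unless stated otherwise. All 5 B-cell markers given here (MS4A1, CD79A, CD79B, PAX5 and CD22) exceeded 1 CPM in every library. Their summed level ranged from 806 to 1540.0 CPM over the MEC1 libraries, from 606 to 1356 CPM over JVM2 and from 851 to 1648 CPM over EHEB. It moved with treatment: fludarabine libraries lay below the DMSO libraries in all 3 lines, and in MEC1 the ibrutinib libraries (1314 to 1540.0 CPM) and idelalisib libraries (1365 to 1405 CPM) lay above DMSO (881 to 946 CPM). In JVM2, where most histone genes fell with these drugs, the ibrutinib (1304 to 1356 CPM) and idelalisib libraries (1298 to 1331 CPM) also lay above DMSO (1199 to 1213 CPM). The 6 T and natural killer cell markers, of which 1 was at 0 in every MEC1 library, summed to at most 56.3 CPM in MEC1, 1.52 CPM in JVM2 and 17.3 CPM in EHEB. Most of the MEC1 sum was GNLY, at 29.3 to 53.7 CPM with all libraries scaled together, as for all marker levels here. GNLY did not exceed 0.134 CPM in JVM2 and 0.983 CPM in EHEB. In EHEB the 6 markers summed to 12.9 to 16.6 CPM in DMSO, 6.60 to 7.18 CPM with ibrutinib and 4.93 to 7.28 CPM with idelalisib. The 6 myeloid and erythroid markers summed to at most 5.88 CPM. In MEC1 they were at 0.426 to 0.893 CPM in DMSO and at 4.35 to 5.88 CPM with fludarabine, where CSF1R rose (log2 fold change 2.74, SE 0.36), and in JVM2 and EHEB they did not exceed 1.93 CPM. The part of these markers in the results below was not tested.

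Histone transcripts made up a measurable share of each library. In DMSO, the members took between 0.806% and 0.955% of the MEC1 counts, between 0.622% and 0.640% of the JVM2 counts and between 0.398% and 0.406% of the EHEB counts. With fludarabine the share lay between 0.306% and 0.338% in MEC1, between 0.150% and 0.168% in JVM2 and between 0.218% and 0.239% in EHEB. Every fludarabine library lay below every DMSO library of its line. The kinase inhibitors diverged between lines. In MEC1 the share was 1.21% to 1.29% with ibrutinib and 1.26% to 1.38% with idelalisib, both above DMSO. In JVM2 it was 0.505% to 0.512% and 0.247% to 0.254%, and in EHEB 0.271% to 0.301% and 0.158% to 0.167%, all below DMSO. These are shares of bulk RNA, so that fewer cells in S phase and less histone RNA per cell cannot be told apart.

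In summed CPM, MEC1 DMSO libraries held 9480, 8249 and 9978 CPM of histone RNA. Fludarabine libraries held 2753, 2684 and 2977 CPM, ibrutinib libraries 11875, 11999 and 12758 CPM, and idelalisib libraries 15537, 13384 and 15968 CPM. The JVM2 means were 6718 ± 62.9 CPM (SD, n = 3) for DMSO, 1508 ± 141 for fludarabine, 5135 ± 97.1 for ibrutinib and 2492 ± 42.3 for idelalisib. The order of drugs thus differed: fludarabine gave the lowest sum in MEC1 and JVM2, whereas in EHEB the lowest sum came with idelalisib, at 1613 ± 55.9 CPM, below fludarabine at 2207 ± 158, ibrutinib at 2815 ± 257 and DMSO at 4249 ± 69.6 CPM. In none of the lines did DMSO overlap with a drug group.

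**Figure D1:**
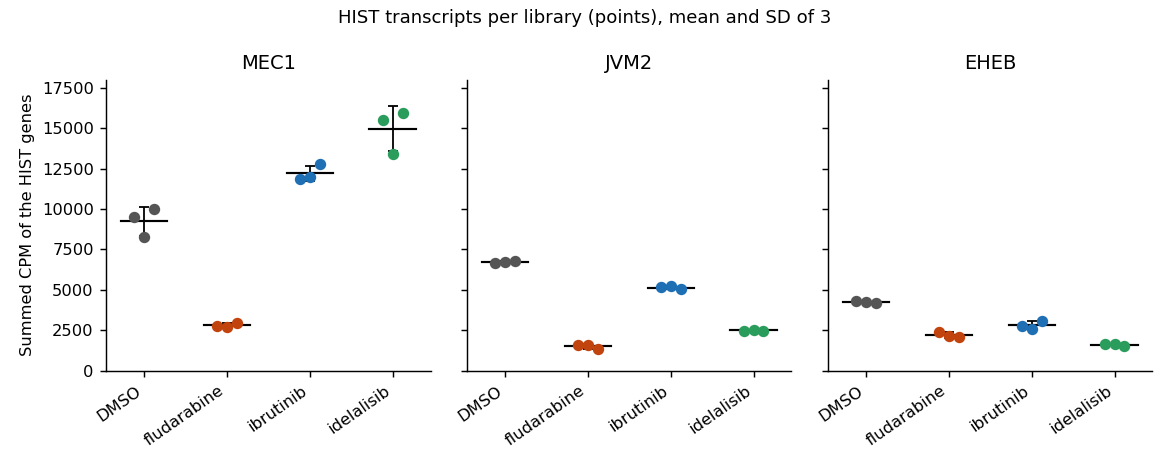
Summed CPM of the 78 histone genes in each library, by line (panels) and treatment (x axis). Points are libraries, the long bar is the mean and the error bar is the SD of 3 libraries. MEC1 with ibrutinib or idelalisib lies above its DMSO libraries, whereas all drug libraries of JVM2 and EHEB lie below theirs.

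Fludarabine lowered histone transcripts of all 5 classes in all 3 lines, and linker histones were among the most affected in MEC1. A call here means an adjusted p under 0.05 by the quasi-likelihood test of edgeR, with p-values adjusted over all genes tested after Benjamini and Hochberg. In MEC1, 76 of the 78 members passed the filter on low counts. Of these, 60 were lower and 1 was higher than in DMSO, at a median log2 fold change of -1.59. Over all 17516 genes, 22.7% were lower and 21.2% were higher, and the median was 0.06. HIST1H1E (chr6:26156329-26157115), which encodes the linker histone H1.4, stood at 294, 263 and 334 CPM in DMSO and at 34.2, 39.8 and 47 CPM with fludarabine. The groups were far apart, at a log2 fold change of -2.88 (SE 0.12; adjusted p = 6.5e-08). HIST1H1D, encoding H1.3, fell by 2.68 on the log2 scale (SE 0.10), HIST1H1C, encoding H1.2, by 2.49 (SE 0.08) and HIST1H1B, encoding H1.5, by 2.11 (SE 0.12). HIST1H1A and the testis gene HIST1H1T were near the limit of counting. HIST1H1A did not exceed 0.359 CPM in any MEC1 library and was not called with any drug. The pseudogene HIST1H1PS1 was likewise not called with any drug in MEC1.

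The core histone genes of MEC1 had class medians between -1.56 and -1.78, against -2.49 for the linker histones. HIST1H2BK (chr6:27146361-27146855), the member with the highest level per kilobase on average over all libraries, was at 369, 319 and 400 CPM in DMSO and at 120, 113 and 130 CPM with fludarabine (log2 fold change -1.58, SE 0.10, adjusted p = 4.08e-07). By class, 4 of 5 tested H1 genes, 14 of 15 H2A, 15 of 17 H2B, 12 of 14 H3 and 12 of 14 H4 genes were lower. Genes of 1 protein differed widely: among H4 genes, HIST1H4F and HIST1H4L were at -0.86 (SE 0.11) and -0.68 (SE 0.11), and HIST1H4I was at -2.23 (SE 0.10). HIST3H2BA, a pseudogene of low level, fell by 2.52 (SE 0.33). The only member that rose was HIST2H2BD, a symbol without a current match, which went from 5.67, 5.29 and 6.65 CPM to 11.6, 9.58 and 10.7 CPM (log2 fold change 0.86, SE 0.22, adjusted p = 0.00909).

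In JVM2 the fall with fludarabine was deeper and less even. Of 71 members tested, 61 were lower and 2 were higher, at a median of -2.32, against 23.3% lower and 23.9% higher of 17508 genes and a median of 0.06. HIST1H1B (chr6:27866792-27867588) was at 163, 140 and 148 CPM in DMSO and at 2.84, 2.93 and 2.603 CPM with fludarabine. Its log2 fold change was -5.75 (SE 0.09; adjusted p = 1.26e-11), the largest of all members in any drug comparison. HIST1H3B (chr6:26031589-26032099), an H3.1 gene, went from 330, 331 and 342 CPM to 8.67, 9.31 and 7.76 CPM (-5.28, SE 0.08). The other linker histones fell much less in the same libraries: HIST1H1D by 3.13 (SE 0.14), HIST1H1E by 1.99 (SE 0.10) and HIST1H1C by 1.71 (SE 0.08). HIST1H1C still reached 157, 148 and 125 CPM, against 450, 470 and 481 CPM in DMSO. HIST1H2AD fell by 5.69 with a wide error (SE 0.80), and its counts spread widely within groups. HIST1H2AC and HIST1H3E were the members that rose and are described further below.

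The H3 genes stood out within JVM2. Summed over the coding H3 genes, the level was 1411, 1387 and 1374 CPM in DMSO and 131.7, 133.1 and 121.8 CPM with fludarabine, or 9.27% of the DMSO mean. The other classes retained 22.0% (H1), 25.2% (H2A), 25.7% (H2B) and 29.2% (H4). The share of H3 in all histone CPM was therefore 20.7% in DMSO and 8.57% with fludarabine, with no overlap between groups. In MEC1 the corresponding class that retained least was H1, at 17.6% of DMSO, against 28.3% to 34.6% for the core classes, and its share went from 11.4% to 6.63%. In EHEB it was again H1, at 38.4%, against 52.2% to 58.8%. These sums describe the libraries and were not tested. They rest largely on the most abundant genes of a class.

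**Figure D2:**
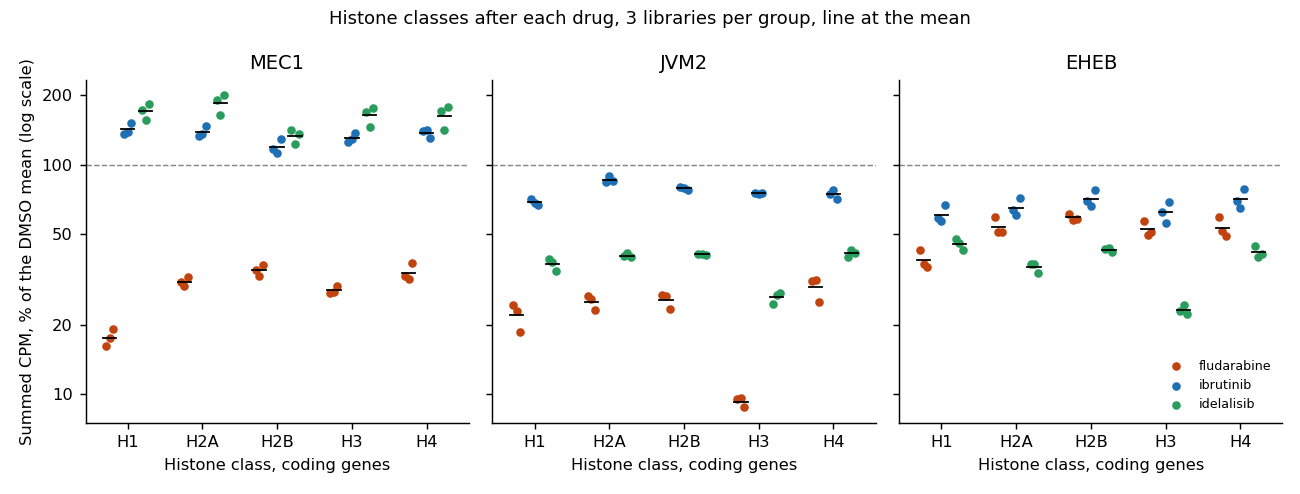
Summed CPM of the coding genes of each histone class as a percentage of the mean of the DMSO libraries of that line, on a log axis. Each point is a library and each bar the mean of 3 libraries. With fludarabine the H3 class of JVM2 lies at 9.27%, far below the other classes, and with idelalisib the H3 class of EHEB lies at 23.3%.

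EHEB showed the mildest fall with fludarabine. Of 74 members tested, 56 were lower and 3 were higher, at a median of -1.003, against 19.2% lower and 18.4% higher of 17748 genes and a median of 0.02. HIST1H1D was at 185.9, 201 and 187 CPM in DMSO and at 65.8, 61.1 and 55.4 CPM with fludarabine (-1.65, SE 0.08, adjusted p = 7.49e-08). HIST1H2BL, an H2B gene, fell by 1.76 (SE 0.09). HIST1H2BK was at 202, 201 and 183 CPM and at 155, 145 and 140 CPM, a shift of only -0.41 (SE 0.08), and its groups still did not overlap. HIST1H2AD fell by 3.35 (SE 0.57). The members that rose were HIST3H2A by 1.09 (SE 0.22), HIST2H2BD by 0.85 (SE 0.29) and HIST1H3E by 0.43 (SE 0.10). The call of HIST2H2BD was lost in 8 of 19 other settings, among them without any single DMSO or fludarabine library.

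Taking the lines side by side, 52 of the 71 members tested in all 3 lines were lower with fludarabine in each, against 8.05% of the 15181 genes tested in all 3. The lowest log2 fold change of a member, whether or not it was a fall, was in JVM2 for 47 members, in MEC1 for 23 and in EHEB for 1. Named by the smallest of their 3 falls, the leading members were HIST1H2AD, HIST1H1D, HIST1H2BM, HIST1H1E and HIST2H2AB. HIST1H2BM fell by 1.65, 3.50 and 1.57 in MEC1, JVM2 and EHEB (SE 0.09, 0.09 and 0.08), and HIST2H2AB by 2.21, 2.36 and 1.47 (SE 0.10, 0.12 and 0.18). The size of the fludarabine effect differed between lines for 58 of 77 members by the line by drug interaction, against 39.1% of all 19286 genes. HIST1H1B (adjusted p = 2.69e-11) and HIST1H3B (adjusted p = 1.76e-12) were among them, and HIST1H4E, at -1.80, -1.62 and -1.38, was not (adjusted p = 0.0828).

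**Figure D3:**
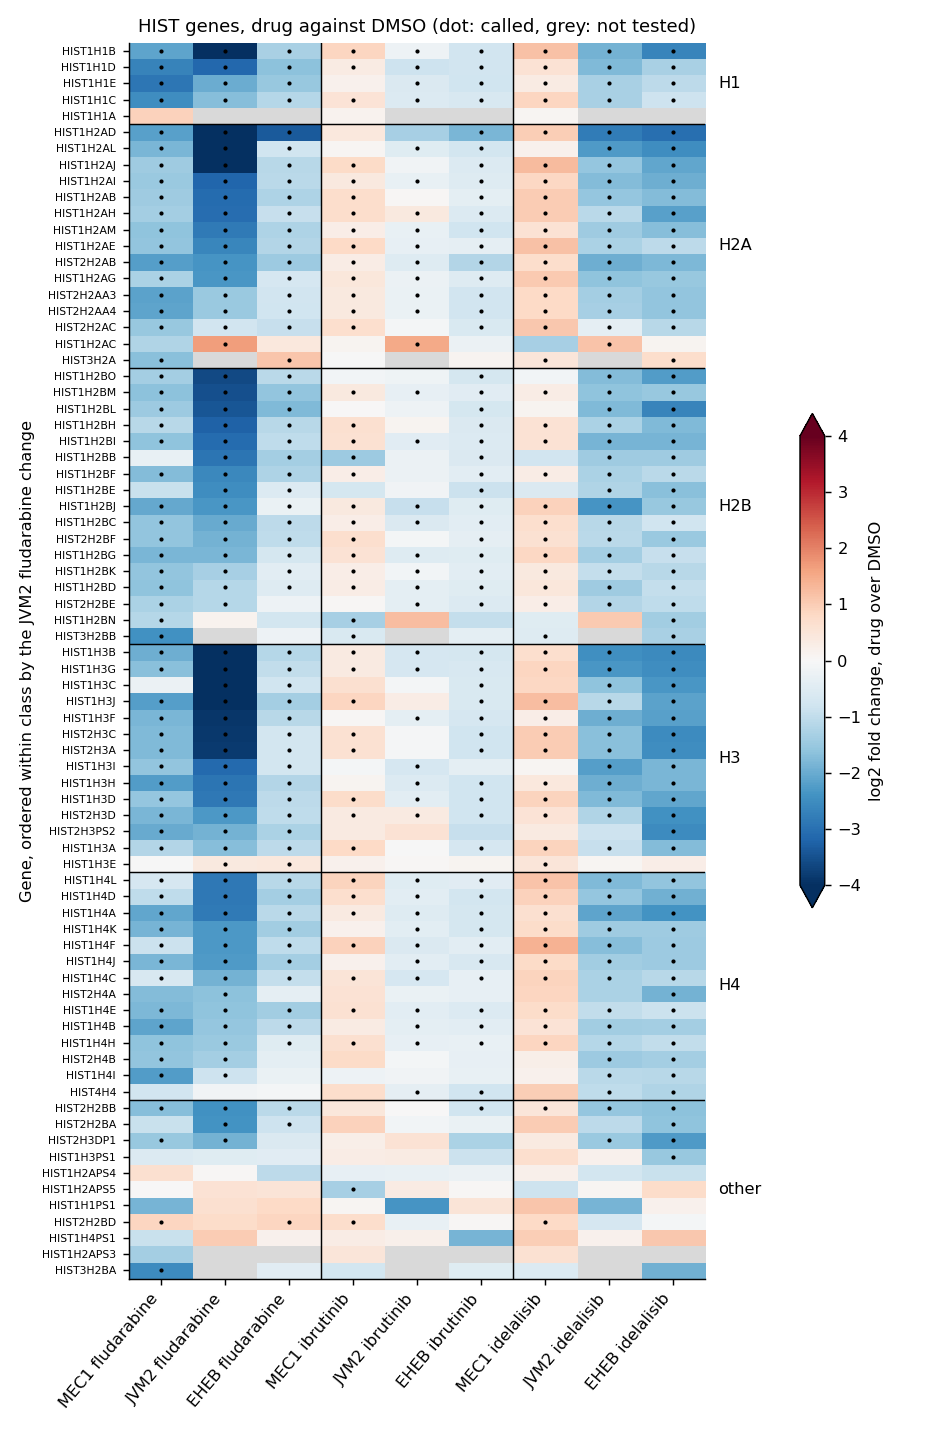
Log2 fold change of each histone gene for drug against DMSO (colour; scale limited to -4 and 4), with genes on the y axis ordered within class by the change with fludarabine in JVM2 and comparisons on the x axis. Dots mark calls and grey marks genes not tested. Most cells are blue (lower), except for ibrutinib and idelalisib in MEC1, where most are red (higher).

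The kinase inhibitors moved histone transcripts in opposite directions in different lines. In MEC1, ibrutinib raised 40 of 76 members and lowered 4, at a median log2 fold change of 0.37, against 23.7% higher and 23.9% lower of all genes. Idelalisib raised 51 and lowered 1, at a median of 0.66, against 27.6% and 27.4%. All comparisons of a line share its DMSO libraries, so these counts are not independent of each other or of those for fludarabine. HIST1H1B had 279, 226 and 286.1 CPM in DMSO, 437, 483 and 519 CPM with ibrutinib and 591, 539 and 649 CPM with idelalisib. The groups did not overlap, and the log2 fold changes were 0.86 (SE 0.11; adjusted p = 7.19e-05) and 1.17 (SE 0.11; adjusted p = 5.04e-06). HIST1H4F, an H4 gene, was at 26.4, 21.4 and 23.8 CPM in DMSO, 43.6, 44.5 and 48.8 CPM with ibrutinib and 63.9, 52.6 and 70.0 CPM with idelalisib. It had the largest rise with both inhibitors among abundant members, at 0.94 and 1.38 (SE 0.11 for both).

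Other members followed with smaller steps. HIST1H4L rose by 0.90 with ibrutinib (SE 0.11). HIST1H2AJ and HIST1H3J rose with idelalisib by 1.26 and 1.22 (SE 0.10 for both). The linker histone HIST1H1C rose by 0.55 and 0.87 with ibrutinib and idelalisib (SE 0.08 for both), while HIST1H1E was at 0.18 with ibrutinib and was not called (adjusted p = 0.197). HIST1H2BK rose by 0.26 with ibrutinib, a call that 9 of 19 other settings did not keep, and by 0.39 with idelalisib (SE 0.09). The members that fell in MEC1 with ibrutinib were HIST1H2BB, HIST1H2BN, HIST3H2BB and the pseudogene HIST1H2APS5, and HIST3H2BB was the one that fell with idelalisib. HIST3H2BB was at 30.3, 28.8 and 26.0 CPM in DMSO, 18.1, 18.6 and 18.9 CPM with ibrutinib and 21.8, 18.4 and 20.03 CPM with idelalisib. The call with idelalisib was lost without the first DMSO or the second idelalisib library.

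In JVM2, ibrutinib lowered 37 of 71 members and raised 3, at a median of -0.29, against 15.0% lower and 14.5% higher of all genes and a median of 0.00. These changes were small. HIST1H3B was at 215, 211 and 206 CPM against 330, 331 and 342 CPM in DMSO (-0.67, SE 0.06, adjusted p = 3.17e-05). HIST1H2BJ fell by 0.92 (SE 0.07), HIST1H1D by 0.82 (SE 0.13) and HIST1H3G by 0.68 (SE 0.07). For HIST1H1B, at 131, 129 and 131 CPM, the call at -0.21 was lost in 15 of 19 other settings. The same held for HIST1H2BK, at -0.12. The rises were HIST1H2AC, HIST1H2AH by 0.38 (SE 0.08) and HIST2H3D by 0.34 (SE 0.09), the last lost without the second or the third DMSO library.

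Idelalisib had a larger effect in JVM2, with 59 members lower and 1 higher at a median of -1.39, against 22.6% and 21.6% of all genes and a median of 0.03. HIST1H3B was reduced to 57.6, 61.5 and 64.5 CPM (-2.45, SE 0.07, adjusted p = 4.38e-09). HIST1H2BJ fell by 2.35 (SE 0.07), as much as with fludarabine (-2.32, SE 0.07), and HIST1H2AD by 2.80 (SE 0.67). HIST1H1B was at 37.8, 40.5 and 43.2 CPM (-1.89, SE 0.07), well above its level with fludarabine. HIST2H2AC, in the HIST2 cluster, fell by only 0.36 (SE 0.07).

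In EHEB, ibrutinib lowered 55 of 74 members at a median of -0.56, against 11.2% of all genes and a median of 0.01. No member was called higher by edgeR (0 at an unadjusted p under 0.05, and 0 by DESeq2), whereas 8.5% of all genes were. HIST2H2AB fell by 1.17 (SE 0.18), HIST1H2BE by 0.86 (SE 0.14) and HIST1H2AD by 1.84 (SE 0.52), the last call being lost without the first or the second DMSO library or the first or the second ibrutinib library. Idelalisib lowered 65 members and raised 1, at a median of -1.55, against 18.2% and 15.1% of all genes and a median of 0.01. HIST1H1B was at 97.9, 99.8 and 97.4 CPM in DMSO, 54.9, 53.8 and 63.2 CPM with ibrutinib and 16.4, 16.9 and 13.9 CPM with idelalisib. Its log2 fold changes were -0.78 (SE 0.10) and -2.64 (SE 0.11; adjusted p = 4.75e-08). HIST1H2BL fell by 2.64 with idelalisib (SE 0.09) and HIST1H3B by 2.55 (SE 0.09). As in JVM2, HIST1H1C and HIST1H1E were the more persistent linker histones, at -0.82 (SE 0.09) and -1.05 (SE 0.08). The H3 class as a whole retained 23.3% of its DMSO level, against 35.8% to 45.1% for the others, and its share of histone CPM was 19.1% in DMSO and 11.7% with idelalisib.

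The difference between lines was tested directly. The ibrutinib effect differed between lines for 56 of 75 members, against 33.6% of 18851 genes, and the idelalisib effect for 63 of 75 members, against 45.7% of 19081 genes. With ibrutinib, 27 of the 71 members tested in all 3 lines were higher in MEC1 and lower in both JVM2 and EHEB, against 0.481% of 15181 genes. With idelalisib 48 of the 71 were, against 2.33% of these genes. All of these also passed the interaction test, which used the same libraries as the calls that picked them and is no separate support. HIST1H4E was one of them for both drugs, at 0.60, -0.41 and -0.56 with ibrutinib (interaction adjusted p = 1.22e-05) and at 0.72, -0.97 and -0.86 with idelalisib (adjusted p = 1.29e-08). No member was lower or higher with ibrutinib or idelalisib in all 3 lines.

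Idelalisib and ibrutinib, which belong to the same series of library numbers, were also compared with each other. In MEC1, 24 of 76 members were higher with idelalisib and 0 were lower, at a median of 0.28, against 6.01% and 9.37% of all genes and a median of 0.00. The count of 0 also held at an unadjusted p under 0.05 and in DESeq2. With scaling by library size alone, 9 were higher and 3 were lower, and the median of all genes moved to -0.17. The count was also 6 without the first ibrutinib library, 15 without the second, 7 without the first idelalisib library and 7 without the third. The leading members were HIST1H4J, HIST1H2AG and HIST1H4K, at 0.60 (SE 0.11), 0.60 (SE 0.10) and 0.58 (SE 0.11). HIST1H4J and HIST1H4K are near-identical copies, and reads may be divided between them. In JVM2, 58 of 71 were lower with idelalisib and 0 were higher, with 0 at an unadjusted p under 0.05 and 0 in DESeq2, at a median of -1.11 against 10.5% lower and 8.21% higher of all genes. HIST1H3B was lower by 1.78 on the log2 scale (SE 0.06). In EHEB, 58 of 74 were lower and 1 was higher, at a median of -0.97, against 9.09% and 6.77%. HIST1H2BL differed most, at -1.94 (SE 0.09), followed by HIST1H1B at -1.86 (SE 0.10) and HIST1H3B at -1.84 (SE 0.09).

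Several members departed from the rest. HIST1H3E (chr6:26225135-26225616) encodes the same H3.1 protein as HIST1H3B but was never lower. In JVM2 it was at 15.8, 15.7 and 16.2 CPM in DMSO and at 19.6, 23.0 and 20.6 CPM with fludarabine (0.41, SE 0.07, adjusted p = 0.000733). In EHEB it was at 17.9, 16.3 and 14.5 CPM and at 21.5, 20.5 and 23.4 CPM (0.43, SE 0.10, adjusted p = 0.0047). In MEC1 with fludarabine it differed by less than the spread between libraries (-0.02, SE 0.11, adjusted p = 0.921). Its annotation includes a transcript that runs 1857 bases past the stem-loop end, and it lies within other annotated genes, so that the counts may hold reads of those transcripts. The same overlaps are annotated for HIST1H1D, HIST1H3F and HIST1H3G, among others, which fell in JVM2 with fludarabine. The part of such reads in the counts of any of these genes was not tested.

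HIST1H2AC (chr6:26124172-26124690) rose in JVM2 with all 3 drugs, from 13.9, 17.5 and 11.9 CPM to 46.6, 45.5 and 45.3 CPM with fludarabine (1.67, SE 0.35), 28.1, 73.5 and 23.8 CPM with ibrutinib (1.53, SE 0.35) and 30.3, 32.6 and 33.6 CPM with idelalisib (1.16, SE 0.35). None of these calls was kept when all 36 libraries were fitted jointly, and the call with idelalisib was also lost without the first or the third DMSO library. In MEC1 its DMSO libraries were at 3.26, 3.20 and 98.2 CPM, a range of 30.7-fold within 1 group, and it was not called there. It too has an annotated extended transcript, of 14426 bases past the end. HIST3H2A (chr1:228457364-228457873) fell by 1.67 in MEC1 with fludarabine (SE 0.21), from 7.83, 5.49 and 8.57 CPM to 1.83, 2.54 and 2.48 CPM, but in EHEB went from 2.13, 2.37 and 2.62 CPM to 5.64, 4.22 and 5.37 CPM. The groups did not overlap in either line. With idelalisib in EHEB it rose by 0.71 (SE 0.22), a call that was lost without the first or the second DMSO library or without the second idelalisib library.

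An extended transcript reaching over 200 bases past the gene's end was annotated for 16 coding members. In JVM2 with fludarabine, 10 of the 14 tested were lower and 2 were higher, at a median of -1.56, whereas all 48 tested members without such a transcript were lower, at a median of -2.86. The 48 include HIST2H2BE, whose single annotated transcript of 2224 bases itself ends 1729 bases past the stem-loop, with log2 fold changes of -1.13 in JVM2 and -0.20 in EHEB, the latter not called. Measured from the stem-loop instead, a change made after the values had been seen, the medians in JVM2 were -1.48 (15 tested) and -2.86 (47 tested). In EHEB with fludarabine the figures were 8 lower and 2 higher of 16 with a median of -0.44, and 46 lower of 48 with a median of -1.08. In MEC1 the medians were close, at -1.59 and -1.65. Among 9 members listed from general knowledge as able to be polyadenylated (HIST1H1C, HIST1H2AC, HIST1H2BC, HIST1H2BD, HIST1H2BJ, HIST1H2BK, HIST2H2BE, HIST3H2A and HIST4H4), 6 of 8 tested were lower and 1 was higher in JVM2 with fludarabine, at a median of -1.22. In EHEB 5 of 9 were lower and 1 was higher, at a median of -0.27, and in MEC1 7 of 9 were lower, at a median of -1.59. HIST4H4, the only member on chromosome 12, was at 40.0, 37.1 and 41.0 CPM in JVM2 DMSO and at 34.2, 39.6 and 33.1 CPM with fludarabine. It was not called there (-0.14, SE 0.10) but fell with idelalisib (-1.01, SE 0.11). These sets were not tested against each other, and counts of whole genes cannot show which form was measured.

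Levels in vehicle-treated cells differed between the lines, which also differed in time of exposure. In DMSO libraries, 43 of 75 members were higher in MEC1 than in JVM2 and 14 were lower, at a median of 0.68, against 30.1% and 33.7% of 17394 genes. MEC1 was higher than EHEB for 58 members and lower for 5, at a median of 1.10, against 31.6% and 35.8%. JVM2 was higher than EHEB for 40 and lower for 6, at a median of 0.51, against 29.6% and 29.9%. With all libraries scaled together and per kilobase of transcript, HIST1H2BK led on average over all 36 libraries with a mean of 438 CPM per kilobase, followed by HIST1H2BC with 371 and HIST1H1C with 356. The next in order were HIST2H2AA4 (329), HIST1H3B (327), HIST2H2AA3 (313), HIST1H3H (311), HIST1H4H (291), HIST1H4E (290) and HIST1H2AG (273 CPM per kilobase). In JVM2 DMSO the order was another, with HIST1H2BC (762), HIST1H3B (674) and HIST1H1C (659) above HIST1H2BK (496 CPM per kilobase). Neighbours in the pooled order differed by less than the range over libraries, which for HIST1H2BK alone ran from 180 to 926 CPM per kilobase. HIST1H4C exceeded EHEB most in JVM2, at 654 ± 23.2 against 185.02 ± 8.48 CPM per kilobase in DMSO (SD, n = 3).

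A few genes were near 0 in 1 line and not in the others. The HIST3 cluster on chromosome 1 was almost silent in JVM2. HIST3H2BB (chr1:228458103-228458558) had summed counts over the 3 DMSO libraries of a line of 3477 (MEC1), 1 (JVM2) and 702 (EHEB). The ratio of EHEB to JVM2, scaled for library size, was 666 with a 95% counting interval of 119 to 26335. HIST3H2A had 875, 1 and 302 counts, and over all 12 JVM2 libraries its counts summed to 1. HIST3H2BA had 198, 0 and 67 counts, which is at least 60.5-fold higher in MEC1 and 21.2-fold higher in EHEB when the 3 JVM2 libraries together are set to 3 counts. Genes on either side were counted in all lines: TRIM11 had 6407, 5500 and 4501 counts and RNF187 10603, 6831 and 5601 in MEC1, JVM2 and EHEB. TRIM17, which lies between TRIM11 and the cluster, had only 171, 111 and 182 counts. These neighbours were chosen after the values had been seen.

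MEC1 lacked other members. HIST1H3C (chr6:26045384-26045869), an H3.1 gene, had 23 counts over the 3 MEC1 DMSO libraries, 9569 in JVM2 and 8520 in EHEB, a ratio of JVM2 to MEC1 of 454 (95% counting interval 302 to 716). HIST1H2BB (chr6:26043227-26043713), the nearest coding member, was also low in MEC1, at 173 counts, while HIST1H2AB and HIST1H1C, the next coding members on either side, had 3379 and 36530 counts there. The pseudogene HIST1H2APS5 lies between HIST1H2BB and HIST1H3C and was not low in MEC1 relative to the other lines. Its DMSO libraries had 40, 50 and 37 counts in MEC1, 14, 40 and 24 in JVM2 and 17, 23 and 14 in EHEB. With all libraries scaled together, HIST1H2BB was at 1.90, 1.00 and 1.22 CPM in MEC1 DMSO, against 32.4, 28.5 and 30.05 CPM in JVM2 and 17.0, 16.1 and 16.2 CPM in EHEB. HIST1H2BE was at 3.67, 1.39 and 1.004 CPM in MEC1, 36.7, 35.2 and 41.0 CPM in JVM2 and 21.5, 23.6 and 21.0 CPM in EHEB. The 3 lines did not overlap for either gene. The intervals cover counting error only. Where reads of near-identical copies were assigned could also differ between lines and was not tested.

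**Figure D4:**
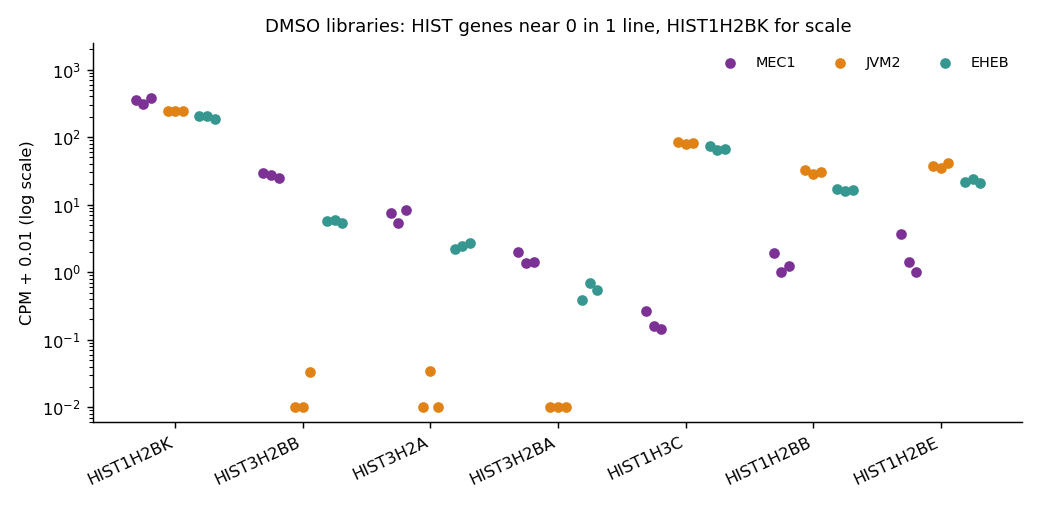
CPM plus 0.01 on a log axis in the 3 DMSO libraries of each line (points, colour by line) for histone genes near 0 in 1 line, with HIST1H2BK for scale. HIST3H2BB, HIST3H2A and HIST3H2BA lie at the bottom in JVM2, and HIST1H3C lies lowest in MEC1.

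Genes that make, process or use histone RNA were described from lists. NPAT, the coactivator of histone gene transcription, changed little: it was higher in MEC1 with fludarabine (0.28, SE 0.08), JVM2 with idelalisib (0.26, SE 0.04) and EHEB with idelalisib (0.20, SE 0.06), and lower in EHEB with fludarabine (-0.30, SE 0.06). SLBP, which binds the stem-loop, fell in MEC1 with ibrutinib (-0.82, SE 0.18) and idelalisib (-0.52, SE 0.18), where histone transcripts rose, and also in JVM2 with fludarabine (-0.34, SE 0.10) and EHEB with idelalisib (-0.51, SE 0.14). Of the 10 genes of histone gene transcription, between 0 and 2 were higher and between 0 and 4 lower in each drug comparison. Over all genes tested, 8.5% to 27.6% were higher and 11.2% to 27.4% were lower in these comparisons. E2F1, a transcription factor of the G1 to S transition, fell by 1.62 in MEC1 with idelalisib (SE 0.08) and by 0.73 in JVM2 with idelalisib (SE 0.11). POU2F1 was lower in JVM2 with fludarabine (-1.12, SE 0.42), and CCNE2, cyclin E2 of the G1 to S transition, in EHEB with idelalisib (-1.02, SE 0.17).

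Of 15 genes of 3′ processing, up to 6 were higher and up to 6 lower in a drug comparison. The 6 higher came with ibrutinib in MEC1 and JVM2, against 23.7% and 14.5% of all genes. The 6 lower came with idelalisib in MEC1, against 27.4%. LSM11, a subunit of the U7 particle that directs cleavage, fell in MEC1 with all 3 drugs, most with idelalisib (-1.15, SE 0.07), and so did SYMPK (-0.90 with idelalisib, SE 0.08). Of 12 tested genes of histone RNA decay, 7 were lower in MEC1 and 6 in JVM2 with fludarabine, with medians of -0.46 and -0.30, where 22.7% and 23.3% of all genes were lower. In any other drug comparison at most 5 were lower, the 5 being with fludarabine in EHEB, against 19.2% of all genes. UPF1, a helicase needed for that decay, fell by 1.56 in MEC1 with idelalisib (SE 0.09) and rose by 0.47 in EHEB (SE 0.05). LSM4 fell by 2.03 in MEC1 with fludarabine (SE 0.48), and DCP2 by 1.76 in JVM2 with fludarabine (SE 0.50). Among 19 histone chaperones, 12 were lower and 1 was higher in MEC1 with idelalisib, against 27.4% and 27.6% of all genes, and 11 were lower with ibrutinib, against 23.9%. In JVM2 with fludarabine 9 were lower and 2 higher, against 23.3% and 23.9%. With ibrutinib in JVM2, 6 were higher and 1 lower, against 14.5% and 15.0%, and with idelalisib 6 and 6, against 21.6% and 22.6%. In MEC1 with fludarabine 4 were higher and 4 lower, against 21.2% and 22.7%. In EHEB 0 were higher and 4 lower with fludarabine, against 18.4% and 19.2%. Ibrutinib there gave 1 higher and 0 lower, against 8.5% and 11.2%, and idelalisib 2 higher and 7 lower, against 15.1% and 18.2%. HJURP, the chaperone of CENP-A, fell by 4.26 in JVM2 with fludarabine (SE 0.18), ASF1B by 1.80 (SE 0.13), and CHAF1B by 1.39 in MEC1 with idelalisib (SE 0.09).

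Of 12 histone variant genes outside the clusters, at most 5 were lower and at most 5 were higher in any drug comparison. The 5 lower came with fludarabine in MEC1 and JVM2 and ibrutinib in EHEB, against 22.7%, 23.3% and 11.2% of all genes. The 5 higher came with ibrutinib in MEC1, against 23.7%. Medians of the 12 genes lay between -0.33 and 0.15, with the sign of the members' median in all 9 drug comparisons. The 2 lists were not tested against each other. CENPA, the centromeric H3 variant, fell by 3.43 in JVM2 with fludarabine (SE 0.26), and H2AFX, the H2A variant phosphorylated at DNA breaks, by 1.48 (SE 0.06). H2AFX also fell in MEC1 with ibrutinib (-0.59, SE 0.06) and idelalisib (-0.42, SE 0.06), where most clustered histone genes rose.

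The 16 genes of DNA replication listed as a reference for S phase moved unlike the histone genes in MEC1. With ibrutinib 14 of them were lower and 0 higher, at a median of -0.77, against 23.9% lower of all genes. With idelalisib again 14 were lower and 0 higher, at a median of -1.12, against 27.4% lower. The histone genes were mostly higher with both drugs. CDT1, which loads the replicative helicase, fell by 2.15 and 2.26 (SE 0.07 for both) and CCNA2, the S and G2 phase cyclin A2, by 0.53 and 0.39 (SE 0.06 for both). With fludarabine in MEC1, 6 of the 16 were lower and 1 was higher, against 22.7% and 21.2% of all genes. The median of the 16 was -0.16, whereas the histone median was -1.59. In JVM2 with fludarabine 13 were lower and 2 higher at a median of -0.79, against 23.3% and 23.9% of all genes. CCNA2 (-4.24, SE 0.08) and RRM2 (-2.54, SE 0.31) led the falls. With ibrutinib in JVM2, 8 were higher and 3 lower at a median of 0.28, against 14.5% and 15.0%, while the histone median was -0.29. With idelalisib 13 were lower and 2 higher in JVM2, at a median of -0.61, against 22.6% and 21.6% of all genes. In EHEB all 16 were lower with idelalisib, at a median of -1.19, against 18.2%. There, 7 were lower and 2 higher with fludarabine at a median of -0.15, against 19.2% and 18.4%. With ibrutinib in EHEB, 4 were lower and 0 higher at a median of -0.17, against 11.2% and 8.5%. The lists were not tested against each other.

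**Figure D5:**
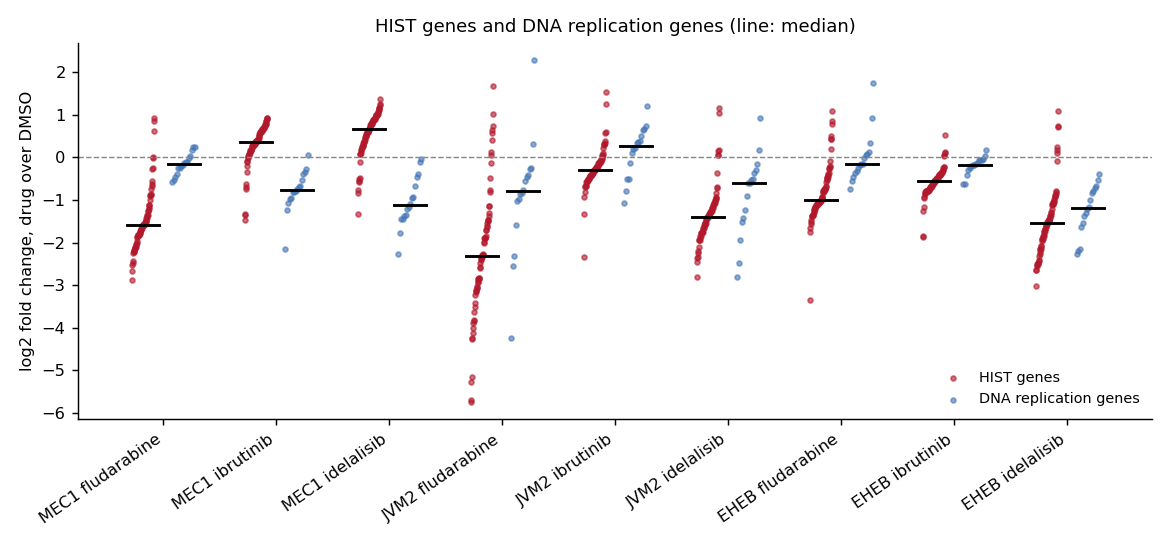
Log2 fold change of each tested histone gene (red) and of 16 DNA replication genes (blue) for drug against DMSO in each line, with bars at the medians. In MEC1 with ibrutinib or idelalisib the histone median lies above 0 and the replication median below 0.

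Replicate libraries agreed closely for most members. In 759 combinations of member and group, the library with the highest count had at least 100 counts. Over these, the median ratio of the highest to the lowest library was 1.15. In 17 combinations it exceeded 3-fold, a limit chosen after the data had been seen. These 17 came from 6 members: HIST1H2AC, HIST1H2AD, HIST1H2BE, HIST1H2BN, HIST2H4A and HIST4H4. HIST2H4A and HIST2H4B are near-identical copies. HIST2H4A alone ranged from 17.5 to 231 CPM within MEC1 DMSO, while the sum of both copies ranged from 254 to 463 CPM. The sum of both was 32.0% of DMSO with fludarabine in MEC1, 35.3% in JVM2 and 76.6% in EHEB. The near-identical pair HIST2H2AA3 and HIST2H2AA4 summed to 22.9% of DMSO in MEC1, 35.7% in JVM2 and 57.9% in EHEB.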

How the data were processed

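Total RNA depleted of ribosomal RNA was sequenced from MEC1, JVM2 and EHEB cells. Per the labels and the methods, the authors trimmed reads with Trimmomatic, aligned them to GRCh38 with HISAT2 2.1 and made read counts with StringTie 1.3.4. The deposited values are expected counts per gene symbol, without normalisation. They were rounded to whole numbers. The sources used here do not give strand, read length or Ensembl release. An entry without a symbol, 0.00384% of all counts, was left out.

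Groups were taken from sample labels. Each line was fitted on its 12 libraries with edgeR 4.0.16 in R 4.3.3 (TMM scaling, filterByExpr, quasi-likelihood F-test, Benjamini-Hochberg adjustment over all genes tested, two-sided, threshold 0.05). DMSO libraries were compared between lines on 9 libraries. Line by drug interactions were fitted on 18 libraries per drug. Standard errors are of log2 fold changes, and errors marked SD are over 3 libraries. Ratios of near-0 genes carry exact binomial 95% intervals, with a floor of 3 counts over a group. Alternatives were DESeq2 1.42.0, other scalings, filters and samples in the fit, and each library left out. The fits were tested on simulated data. Coordinates and transcripts came from GENCODE 44 and promoters from RefSeq, both on GRCh38, matched through current symbols.

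The members and lists were chosen with earlier results of these data known. Named genes were the 10 members of highest level per kilobase, all H1 members, up to 3 called members with the largest change in either direction per drug comparison, up to 5 called in all lines with a drug, up to 3 in the other comparisons, up to 3 called genes per list, NPAT and SLBP. HIST1H4E, HIST1H4I, HIST2H2AC, HIST4H4, HIST1H3C and members of unusual spread were also described after their values had been seen. One gene of the B-cell marker list is not reported here, and the marker sums were computed without it.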

Additional observations from a re-analysis of the deposited data

Results flagged for a closer look

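The drug effect differed between the lines, by the line by drug interaction of edgeR's quasi-likelihood test, for 58 of 77 histone genes with fludarabine (39.1% of all genes), 56 of 75 with ibrutinib (33.6%) and 63 of 75 with idelalisib (45.7%). Of 71 histone genes tested in all 3 lines, 27 were higher in MEC1 and lower in JVM2 and EHEB with ibrutinib, against 0.481% of all genes, and 48 with idelalisib, against 2.33%. Exposure time differed between lines in the same way, so line and time cannot be told apart, and the part of the library number series in the kinase inhibitor results was not tested.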

How the results depend on the processing

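Of 30 counts of called histone genes, 21 stayed within 1.5 times the reported count under every alternative tried. The others were small counts, except for idelalisib against ibrutinib in MEC1. Scaling by library size alone gave 9 higher and 3 lower there, 2 lower for MEC1 idelalisib, 2 higher for JVM2 idelalisib and 2 higher for EHEB idelalisib. It moved the median log2 fold change of all genes to 0.31 for MEC1 fludarabine, 0.26 for JVM2 fludarabine and -0.17 for MEC1 idelalisib against ibrutinib. DESeq2 gave 2 higher for JVM2 and 2 for EHEB idelalisib. A mean of at least 5 CPM gave 2 lower for MEC1 ibrutinib and 0 higher for EHEB idelalisib against ibrutinib. The 6 libraries of the comparison alone gave 2 lower for MEC1 idelalisib, 2 higher for JVM2 idelalisib and 0 higher for EHEB idelalisib against ibrutinib. All 36 libraries jointly gave 2 lower for MEC1 idelalisib, 1 higher for JVM2 fludarabine, 0 higher for JVM2 idelalisib and 2 higher for EHEB idelalisib.

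With each library left out, the counts ranged as follows: 0 to 2 lower for MEC1 idelalisib (0 without the first DMSO or the second idelalisib library), 0 to 2 higher for JVM2 idelalisib (0 without the first or the third DMSO library), 0 to 1 higher for EHEB idelalisib (0 without the second idelalisib library), 6 to 26 higher for MEC1 idelalisib against ibrutinib, 0 to 1 higher for that comparison in JVM2 (1 without the second ibrutinib library) and 0 to 2 in EHEB (0 without the first or the second ibrutinib or the first idelalisib library). The cause of these shifts was not tested.

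Of 187 named results, 166 kept direction and call in all alternatives, 19 lost a call in at least 1, 2 gained a call in at least 1 and 0 reversed. Besides those given above, calls were lost for ibrutinib in MEC1 by HIST1H1D, HIST1H2BB, HIST1H2BC and HIST1H2BN, in JVM2 by HIST1H2AG and HIST2H2AA4 and in EHEB by HIST1H4H, and for idelalisib in MEC1 by HIST1H1E. No paired analysis was possible because library numbers are unique to each library and no groups share them. Read depth limited the members near 0, for which only counting intervals are given.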
